A study of Mus musculus with 8 samples.

Results

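Ribosome biogenesis begins in the nucleolus, where RNA polymerase I transcribes ribosomal DNA into a long precursor that is modified under the guidance of small nucleolar RNAs, cleaved and folded, and built with ribosomal proteins into the small and large subunits. The pathway is a well known target of the transcription factor Myc, and the dividing cells at the base of colon crypts are among its heavy users. A set of 39 genes of this pathway, with *Myc* itself, was chosen by name from the 29234 genes counted in colon organoids, and the set leaves out the ribosomal proteins. All 39 passed the filter on low counts that left 12729 genes for testing.

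Colon organoids are hollow balls of epithelium that form when crypts of the mouse colon are cultured in Matrigel, here of wild type genotype in both conditions. They were exposed to fecal supernatant of mice that had received dextran sulfate sodium (FS_DSS), a compound that injures the colon epithelium, or to fecal supernatant of healthy mice (FS_CTR), each at 4 mg/mL and with 4 libraries. The labels give a time of 5 days, and the methods describe additions on culture days 3 and 5. The supernatants came from pooled fecal pellets of C57BL/6N mice, and no source says whether the 4 libraries of a condition came from separate cultures or animals, so the *p* values speak only of the scatter among these libraries, part of which may be technical. No condition without supernatant is among the libraries used here.

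The libraries held 18968416 to 27035243 counts each. FS_CTR replicates 3 and 4 stood apart: the 13 mitochondrially encoded protein genes took 38.7% and 33.3% of their counts, against 2.83% to 6.35% in the 4 FS_DSS libraries and 5.10% and 6.98% in FS_CTR replicates 1 and 2. Across genes, these libraries correlated with the other 6 at 0.929 to 0.956, and the other 6 with each other at 0.953 to 0.985, so the values without them are given beside the main results. All 14 defining markers of colon epithelium were detected, with a summed level of 21103 to 23945 CPM (counts scaled to a common library size) in FS_DSS libraries and 19033 to 24678 CPM in FS_CTR libraries. Markers of other cell types were near 0: the 8 immune markers summed to 7.49 to 17.4 CPM in FS_DSS and 7.49 to 15.5 CPM in FS_CTR libraries, and the 10 markers of fibroblasts and muscle to 2.03 to 3.45 CPM and 2.28 to 6.50 CPM.

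The letters CACGTG, the E-box that Myc binds with its partner Max, were looked for on both strands, which read the same for this palindrome, in RefSeq promoter windows of 250 bases before and 50 bases after each gene's start (mouse GRCm38.p6). A window was at hand for 33 of the 39 genes, and the letters stood in 9 of them, or 27.3%, against 8.09% of all 27025 genes of the table and 11.5% of the 9532 tested genes with a window. In the 250 bases before the start alone the share was 3 of 33, or 9.09%, against 6.86% of all genes and 9.66% of the tested genes. Outside the set, the whole window held the letters in 9 of 39 small subunit factors (23.1%) and 7 of 39 large subunit factors (17.95%). They stood in 1 of 12 further RNA polymerase I factors (8.33%) and 6 of 58 cytosolic ribosomal proteins (10.3%). A share above that of all genes was thus not particular to the set. *Rrn3*, the factor that brings RNA polymerase I to its promoter, held the letters at positions -215 and -48 from its start, *Utp18* of the small subunit processome at -20, and *Nop2*, an rRNA methyltransferase, at -60. The 5 genes with the letters and the smallest *p* are shown to let the sites be compared in their surroundings, with *Gar1*, which had the smallest *p* among the genes without the letters. Capitals mark CACGTG. The first 4 sequences are the 250 bases before the start, and the last 2 are short stretches around a match after the start, at position 41 in *Mybbp1a* and 38 in *Utp20*. In the coordinates of GRCm38.p6 they lie at chr16:13780449-13780698 (plus strand, *Rrn3*), chr11:93885767-93886016 (minus, *Utp18*), chr6:125131633-125131882 (plus, *Nop2*), chr3:129831397-129831646 (minus, *Gar1*), chr11:72441357-72441376 (plus, *Mybbp1a*) and chr10:88826765-88826787 (minus, *Utp20*).
Rrn3: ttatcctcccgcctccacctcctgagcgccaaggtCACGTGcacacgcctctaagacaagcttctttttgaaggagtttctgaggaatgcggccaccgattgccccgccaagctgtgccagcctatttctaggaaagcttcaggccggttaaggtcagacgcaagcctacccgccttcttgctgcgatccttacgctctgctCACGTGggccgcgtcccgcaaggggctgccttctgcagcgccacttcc
Utp18: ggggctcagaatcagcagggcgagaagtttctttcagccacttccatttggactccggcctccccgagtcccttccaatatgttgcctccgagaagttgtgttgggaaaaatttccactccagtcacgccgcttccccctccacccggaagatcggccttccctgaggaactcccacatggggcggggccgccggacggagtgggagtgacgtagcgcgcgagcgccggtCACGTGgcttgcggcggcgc
Nop2: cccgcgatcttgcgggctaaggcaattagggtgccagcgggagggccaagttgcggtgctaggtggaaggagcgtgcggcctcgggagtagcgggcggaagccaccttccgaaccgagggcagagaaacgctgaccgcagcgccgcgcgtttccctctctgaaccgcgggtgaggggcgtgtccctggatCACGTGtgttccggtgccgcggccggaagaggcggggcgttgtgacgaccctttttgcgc
Gar1: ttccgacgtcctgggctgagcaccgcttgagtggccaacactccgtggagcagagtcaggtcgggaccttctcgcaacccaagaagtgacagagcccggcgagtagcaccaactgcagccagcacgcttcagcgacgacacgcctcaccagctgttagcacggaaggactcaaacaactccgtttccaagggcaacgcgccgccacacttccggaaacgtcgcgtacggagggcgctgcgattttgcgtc
Mybbp1a: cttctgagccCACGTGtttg
Utp20: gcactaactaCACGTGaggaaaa

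Of the 9 genes with the letters, 8 had a positive Log2(FC) of FS_DSS over FS_CTR and 1 a negative one. Among the 24 genes with a window and no match, 13 had a positive and 11 a negative value. Of all genes tested, 52.5% had a negative value, and signs were not counted over all tested genes with the letters. The smallest unadjusted *p* of the 9 in edgeR's quasi-likelihood test was 0.101, for *Rrn3*, so these signs rest on values not told apart from 0. The other matches were in *Ltv1*, *Tsr1*, *Wdr43* and *Pes1*, all within the 50 bases after the start. Without FS_CTR replicates 3 and 4 the sign turned for *Utp20* (-0.089) and *Pes1* (0.016). A match describes the letters only, and binding of Myc was not measured.

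As a whole, the ribosome biogenesis genes did not move in one direction. Their median Log2(FC) was 0.05, against -0.02 over all genes tested, and 15 of the 39 had a negative value, against 52.5% of all genes. In edgeR's quasi-likelihood test, 0 of the 39 passed an adjusted *p* of 0.05 in either direction, as did 0.0% of all genes. At an unadjusted *p* under 0.05, 6 of the 39 were lower (*Ubtf*, *Ncl*, *Fbl*, *Nhp2*, *Gar1* and *Nop10*), against 13.4% of all genes, and 1 was higher (*Myc*), against 10.6%. With the study's thresholds, an unadjusted *p* under 0.05 and a Log2(FC) of at least 0.58 in size, 2 were lower (*Nhp2* and *Gar1*), against 6.46%, and 0 were higher, against 2.56%. The FS_DSS libraries all lay below the FS_CTR libraries for 3 genes (*Fbl*, *Gar1* and *Ubtf*), against 7.58% of all genes, and all above for *Myc*, against 7.41%. In the lower direction these shares were close to those of all genes, and in the higher direction fewer genes of the set were called than their share of all genes. At an unadjusted *p* under 0.05, the fit with the replicate block gave 2 higher, against 14.7% of all genes, and 8 lower, against 16.2%, and DESeq2 gave 2 higher, against 11.9%, and 6 lower, against 14.5%.

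Summed over the 39 genes, the level was 2631, 2989, 3178 and 3182 CPM in the FS_DSS libraries, against 3056, 3104, 3316 and 3199 CPM in the FS_CTR libraries. The groups overlapped, with means of 2995 ± 259 CPM in FS_DSS and 3169 ± 115 CPM in FS_CTR (SD, n = 4 each). As a share of counts outside the mitochondrial genes, which does not depend on how the libraries were scaled, they made up 0.318%, 0.355%, 0.383% and 0.378% in FS_DSS, against 0.381%, 0.380%, 0.346% and 0.325% in FS_CTR. In bulk RNA, fewer cells that make a transcript and less of it per cell cannot be told apart.

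**Figure D1:**
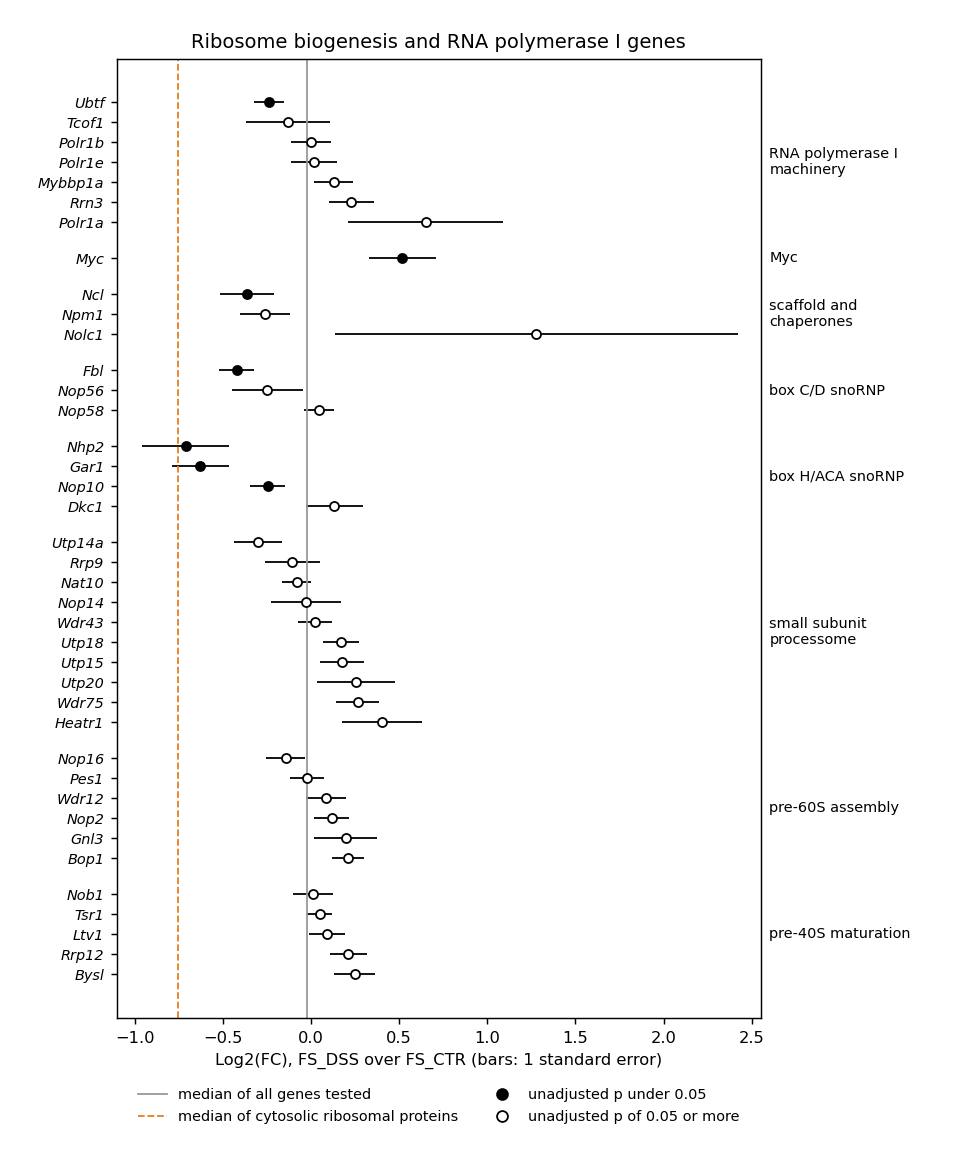
Log2(FC) of FS_DSS over FS_CTR for the 39 genes, grouped by role, with bars of 1 standard error and filled points for an unadjusted p under 0.05. Values ran between -0.71 (Nhp2) and 1.28 (Nolc1, with a wide error), around a median of 0.05 that lies close to that of all genes (grey line, -0.02) and away from that of cytosolic ribosomal proteins (dashed line, -0.76).

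The smallest *p* values of the set were in proteins of the small nucleolar ribonucleoproteins (snoRNPs), the particles in which a guide RNA directs the modification of single rRNA bases. In box C/D snoRNPs, fibrillarin (*Fbl*, ENSMUSG00000046865.9, chromosome 7, 27868353 to 27878701, plus strand of GRCm39) is the methyltransferase that acts on the ribose, and *Nop56* and *Nop58* form the core around it. *Fbl* was at 64.5, 79.8, 81.9 and 77.3 CPM in FS_DSS libraries, against 93.4, 99.8, 112 and 101 CPM in FS_CTR libraries. Every FS_DSS library lay below every FS_CTR library, and its Log2(FC) of -0.42 ± 0.10 (SE) had an adjusted *p* of 0.0832 in edgeR's quasi-likelihood test (unadjusted *p* 0.00222). With same-numbered libraries paired (the replicate block) the adjusted *p* in edgeR was 0.0478, and in DESeq2 without the block it was 0.00626. In each of those fits 2 of the 39 genes were lower at an adjusted *p* under 0.05, against 1.41% of all genes with the block and 6.22% in DESeq2, and 0 were higher, against 0.534% and 5.04%. Without FS_CTR replicates 3 and 4 the Log2(FC) of *Fbl* was -0.35, with an unadjusted *p* of 0.0181 in edgeR.

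*Nop58* was at 73.4 ± 6.54 CPM in FS_DSS and 71.0 ± 3.42 CPM in FS_CTR (SD, n = 4 each), with a Log2(FC) of 0.05 ± 0.09. *Nop56* was at 132, 162, 182 and 192 CPM in FS_DSS, against 153, 149, 245 and 246 CPM in FS_CTR, where the higher values were those of replicates 3 and 4. Its Log2(FC) of -0.25 ± 0.20 turned to 0.14 without them. The ratio of *Fbl* to *Nop58* counts within a library, which no scaling between libraries can alter, was 0.987, 1.096, 1.01 and 1.05 in FS_DSS, against 1.34, 1.31, 1.62 and 1.47 in FS_CTR. The FS_DSS ratios all lay below the FS_CTR ratios. The ratio of *Fbl* to *Nop56* was 0.488, 0.494, 0.451 and 0.402 in FS_DSS, against 0.610, 0.668, 0.459 and 0.411 in FS_CTR, where replicates 3 and 4 lay among the FS_DSS libraries. Since these pairs were picked after their values were seen, no test was made of them.

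Box H/ACA snoRNPs convert uridine to pseudouridine and have 4 proteins, the synthase dyskerin (*Dkc1*) with *Nhp2*, *Nop10* and *Gar1*. The 3 small proteins had lower transcript levels in FS_DSS at an unadjusted *p* under 0.05, whereas *Dkc1* did not. *Gar1* (ENSMUSG00000028010.18, chromosome 3, 129618560 to 129625045, minus strand) was at 21.4, 25.7, 29.0 and 28.2 CPM in FS_DSS, against 31.9, 34.8, 45.8 and 49.2 CPM in FS_CTR. The groups did not overlap, and the Log2(FC) was -0.63 ± 0.16, with an adjusted *p* of 0.0890 in edgeR's quasi-likelihood test, 0.0444 with the replicate block and 0.0126 in DESeq2. The value was -0.35 (unadjusted *p* 0.0365 in edgeR) without FS_CTR replicates 3 and 4, the libraries in which *Gar1* was highest.

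*Nhp2* (ENSMUSG00000001056.5, chromosome 11, 51510383 to 51520806, plus strand), which binds the guide RNA, was at 34.2, 45.7, 53.2 and 53.3 CPM in FS_DSS, against 50.7, 58.3, 91.2 and 105 CPM in FS_CTR. The lowest FS_CTR library lay among the FS_DSS libraries, and FS_CTR replicates 3 and 4 were far above the rest. Its Log2(FC) of -0.71 ± 0.25 was the lowest of the 39, with an adjusted *p* of 0.139 in edgeR, and was -0.22 without those libraries (unadjusted *p* 0.266). *Nop10* (ENSMUSG00000027133.5, chromosome 2, 112092271 to 112093764, plus strand), the smallest protein of the particle, was at 57.5, 70.6, 60.5 and 60.03 CPM in FS_DSS, against 66.9, 81.2, 69.1 and 77.1 CPM in FS_CTR. The groups overlapped, and its Log2(FC) of -0.24 ± 0.10 (adjusted *p* 0.179 in edgeR) was -0.25 without FS_CTR replicates 3 and 4.

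*Dkc1* was at 39.6, 44.7, 43.7 and 38.8 CPM in FS_DSS, against 44.2, 46.5, 33.5 and 27.5 CPM in FS_CTR, with replicates 3 and 4 lowest. Its Log2(FC) was 0.13 ± 0.16, and -0.12 without them. The ratio of *Gar1* to *Dkc1* counts was 0.541, 0.576, 0.664 and 0.728 in FS_DSS, against 0.720, 0.750, 1.37 and 1.79 in FS_CTR, a small overlap. The ratio of *Nhp2* to *Dkc1* was 0.863, 1.02, 1.22 and 1.37 in FS_DSS, against 1.15, 1.25, 2.72 and 3.83 in FS_CTR, which overlapped among the first libraries and stood out in FS_CTR replicates 3 and 4. The ratio of *Nop10* to *Dkc1*, at 1.45, 1.58, 1.38 and 1.548 in FS_DSS and 1.51, 1.75, 2.06 and 2.80 in FS_CTR, overlapped in 1 FS_CTR library.

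**Figure D2:**
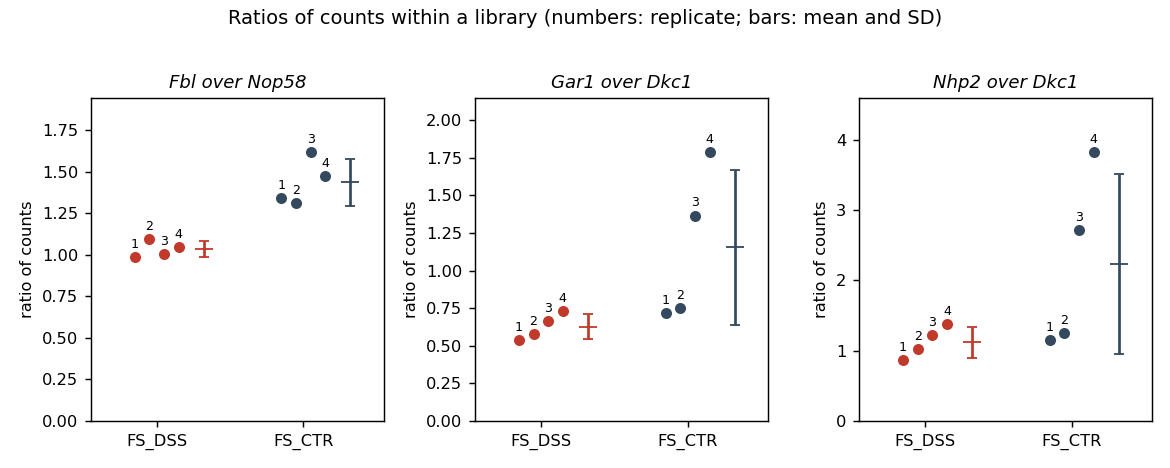
Ratio of counts of Fbl over Nop58, Gar1 over Dkc1 and Nhp2 over Dkc1 within each library, FS_DSS at the left and FS_CTR at the right, with the replicate number at each point and bars of mean and SD (n = 4). The Fbl over Nop58 ratios of FS_DSS, 0.987 to 1.096, lie below those of FS_CTR, 1.31 to 1.62, while the other ratios overlap and are highest in FS_CTR replicates 3 and 4.

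The transcription machinery of RNA polymerase I had a median Log2(FC) of 0.02 over 7 genes, 2 of them negative. *Ubtf* (ENSMUSG00000020923.19, chromosome 11, 102195386 to 102210568, minus strand), which coats active ribosomal DNA, was the only one at an unadjusted *p* under 0.05. It was at 121, 129, 116 and 114 CPM in FS_DSS, against 132, 134, 147 and 154 CPM in FS_CTR. The groups did not overlap, yet the difference was small, with a Log2(FC) of -0.24 ± 0.09 and an adjusted *p* of 0.143 in edgeR's quasi-likelihood test. Without FS_CTR replicates 3 and 4 it was -0.15 (unadjusted *p* 0.13).

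The catalytic subunits differed in their spread. *Polr1a*, the largest subunit, was at 33.7, 25.1, 31.3 and 37.7 CPM in FS_DSS, against 38.2, 22.8, 12.9 and 6.57 CPM in FS_CTR. The low values were again those of FS_CTR replicates 3 and 4, and the Log2(FC) of 0.65 ± 0.44 was 0.07 without them. *Polr1b*, the second largest subunit, was at 42.4 ± 2.16 CPM in FS_DSS and 42.3 ± 6.01 CPM in FS_CTR. *Polr1e*, a subunit that helps the enzyme start, was at 15.6 ± 2.25 CPM in FS_DSS and 15.4 ± 0.924 CPM in FS_CTR (SD, n = 4 each).

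*Mybbp1a*, a nucleolar protein and the most abundant transcript of this group, was at 215, 228, 261 and 282 CPM in FS_DSS, against 247, 228, 220 and 206 CPM in FS_CTR. The groups overlapped, with a Log2(FC) of 0.13 ± 0.11, and 0.05 without FS_CTR replicates 3 and 4. *Rrn3* had a Log2(FC) of 0.23 ± 0.13, and also 0.05 without those libraries. *Tcof1*, treacle, a scaffold of the transcription sites that is mutated in Treacher Collins syndrome, was further from 0 when those libraries were left out: its Log2(FC) of -0.13 ± 0.24 became -0.50, with an unadjusted *p* of 0.0109 in edgeR. It was at 42.6, 39.3, 34.4 and 30.1 CPM in FS_DSS, against 55.3, 48.1, 29.9 and 26.1 CPM in FS_CTR.

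Another 16 subunits and factors of RNA polymerase I, some shared with the other nuclear polymerases, leaned to lower values. Their median Log2(FC) was -0.20 and 14 of 16 were negative, and the median was -0.07 without FS_CTR replicates 3 and 4. At an unadjusted *p* under 0.05, 4 were lower, against 13.4% of all genes, and 0 higher, against 10.6%. The 4 were *Polr2h* (-0.42 ± 0.12), *Polr2l* (-0.72 ± 0.28) and *Polr2e* (-0.33 ± 0.13), which all the nuclear polymerases share, and *Znrd1* (-0.35 ± 0.13), a small subunit of RNA polymerase I. Of these, *Polr2h* kept its value without FS_CTR replicates 3 and 4, at -0.43 (unadjusted *p* 0.00955 in edgeR), while *Polr2l* was at -0.16, *Polr2e* at -0.17 and *Znrd1* at -0.18.

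*Myc* (ENSMUSG00000022346.19, chromosome 15, 61857227 to 61862223, plus strand) was the one gene of the set with higher values in every FS_DSS library than in any FS_CTR library. It was at 183, 210, 176 and 212 CPM in FS_DSS, against 173, 164, 108 and 98.4 CPM in FS_CTR. The FS_DSS mean was 195 ± 18.4 CPM and the FS_CTR mean 136 ± 38.1 CPM (SD, n = 4 each), a Log2(FC) of 0.52 ± 0.19 with an adjusted *p* of 0.149 in edgeR's quasi-likelihood test (unadjusted *p* 0.0224). Much of the distance came from FS_CTR replicates 3 and 4, without which it was 0.21 (unadjusted *p* 0.101).

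**Figure D3:**
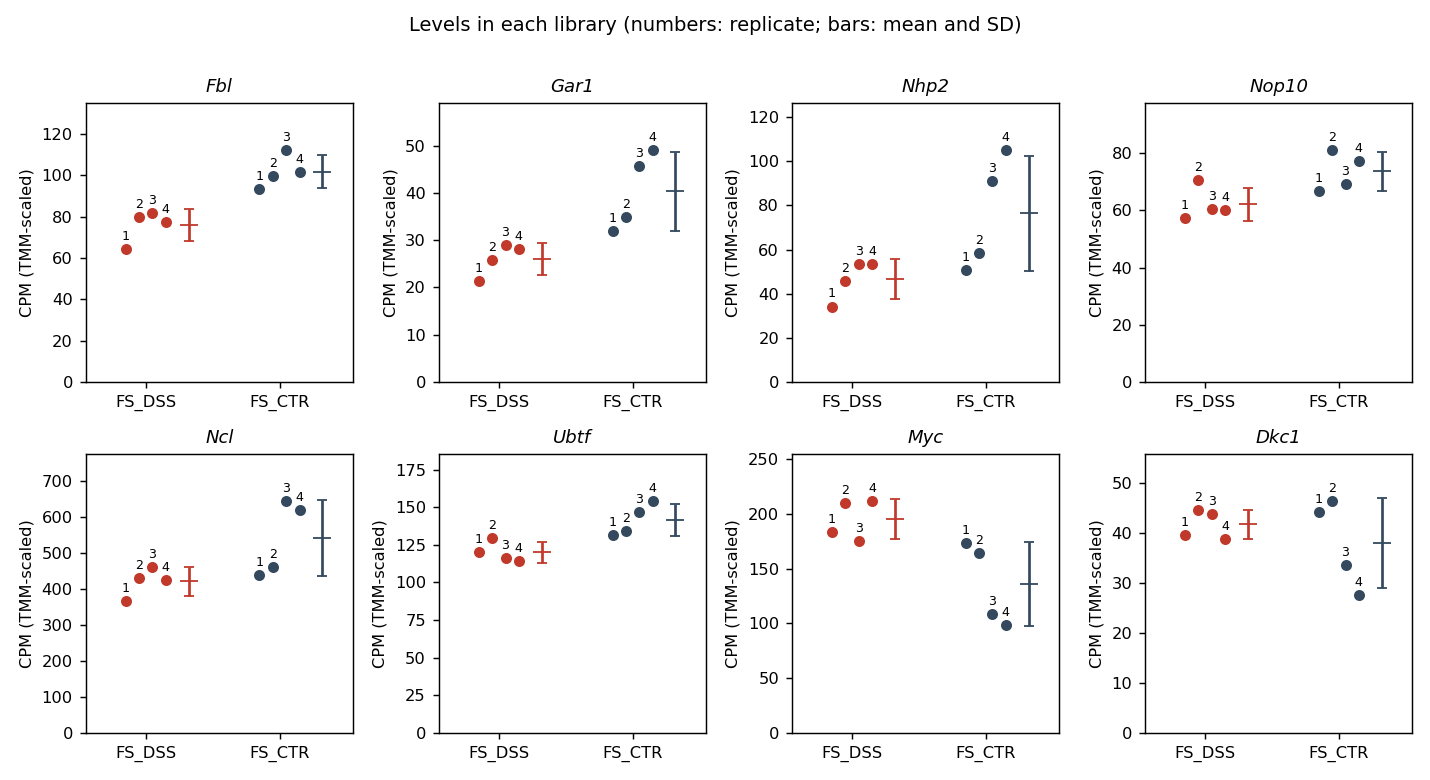
Level in CPM of 8 genes in each library, FS_DSS at the left and FS_CTR at the right, with the replicate number at each point and bars of mean and SD (n = 4). Fbl, Gar1 and Ubtf are lower and Myc is higher in every FS_DSS library than in any FS_CTR library. FS_CTR replicates 3 and 4 are the extreme libraries for Fbl, Gar1, Nhp2, Ncl, Ubtf, Myc and Dkc1.

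The targets and partners of Myc were read beside it. Of 28 known Myc targets outside ribosome biogenesis, 24 had a negative Log2(FC), with a median of -0.14. At an unadjusted *p* under 0.05, 6 were lower, against 13.4% of all genes, and 0 higher, against 10.6%. With the replicate block 10 were lower, against 16.2%. Without FS_CTR replicates 3 and 4, 27 of 28 were negative, with a median of -0.20, and 10 were lower at that *p*, against 10.9% of all genes. Among them were the mitochondrial scaffold proteins prohibitin (*Phb*, -0.37 ± 0.08) and *Phb2* (-0.29 ± 0.09). *Nme1*, a nucleoside diphosphate kinase, was at 42.2, 49.7, 53.6 and 60.6 CPM in FS_DSS, against 63.5, 68.9, 87.0 and 93.3 CPM in FS_CTR. It had a Log2(FC) of -0.60 ± 0.15 with no overlap, and an adjusted *p* of 0.0883 in edgeR and 0.0397 with the replicate block. *Hspe1*, the small mitochondrial chaperonin, had -0.69 ± 0.18 with the same adjusted *p* values in both fits. Leaving out FS_CTR replicates 3 and 4 gave -0.36 for *Nme1* and -0.46 for *Hspe1*.

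Of 14 partners and antagonists of Myc, 2 were higher at an unadjusted *p* under 0.05, against 10.6% of all genes, and 1 was lower, against 13.4%. With the replicate block 2 were higher, against 14.7%, and 3 lower, against 16.2%. These counts were near the shares of all genes. *Mnt*, which competes with Myc for Max and represses its targets, was at 65.4, 61.8, 64.8 and 72.0 CPM in FS_DSS, against 50.4, 52.2, 43.5 and 43.9 CPM in FS_CTR. The groups did not overlap. Its Log2(FC) was 0.47 ± 0.09 (adjusted *p* 0.0784 in edgeR), and 0.36 without FS_CTR replicates 3 and 4 (unadjusted *p* 0.00549). *Mga*, another member of the network that binds Max, had 0.44 ± 0.15, and *Mlx*, a relative of Max, had -0.31 ± 0.10. *Max* itself had -0.11 ± 0.16, and 0.20 without FS_CTR replicates 3 and 4, where *Mga* had 0.25 and *Mlx* -0.23.

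Nucleolin (*Ncl*) and nucleophosmin (*Npm1*) are abundant nucleolar proteins that fold and carry ribosome precursors. *Ncl* (ENSMUSG00000026234.14, chromosome 1, 86272441 to 86287208, minus strand) was at 367, 431, 462 and 424 CPM in FS_DSS, against 439, 461, 646 and 620 CPM in FS_CTR. The groups overlapped. Its Log2(FC) of -0.36 ± 0.15 (adjusted *p* 0.188 in edgeR's quasi-likelihood test) was -0.09 without FS_CTR replicates 3 and 4. *Npm1* was at 291, 386, 457 and 407 CPM in FS_DSS, against 418, 465, 488 and 474 CPM in FS_CTR, with a Log2(FC) of -0.26 ± 0.14 (unadjusted *p* 0.0982, or 0.0318 with the replicate block) and -0.19 without those libraries. *Nolc1*, a chaperone of snoRNPs, was barely counted, with 36, 29, 73 and 0 reads in FS_DSS and 24, 26, 0 and 0 reads in FS_CTR, so its Log2(FC) of 1.28 ± 1.14 carries little information.

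The later steps, in which precursors are cleaved and assembled, had medians just above 0. Over 10 genes of the small subunit processome, the large particle that folds and cuts the precursor of the small subunit, the median Log2(FC) was 0.10, and 0.05 without FS_CTR replicates 3 and 4. Of the 10, 4 were negative and 0 passed an unadjusted *p* of 0.05, while 1 (*Utp14a*, *p* 0.0227) passed it with the replicate block in edgeR. *Wdr43*, the most abundant of them, was at 47.3, 55.4, 61.8 and 59.6 CPM in FS_DSS, against 54.0, 56.0, 57.1 and 53.3 CPM in FS_CTR, a Log2(FC) of 0.02 ± 0.10. The highest value was 0.40 ± 0.23 for *Heatr1*, which links the processome to RNA polymerase I transcription, and the lowest was -0.30 ± 0.14 for *Utp14a*, which activates a helicase of the particle in yeast. *Wdr75* (0.26 ± 0.12), *Utp20* (0.25 ± 0.22), *Utp15* (0.18 ± 0.12) and *Utp18* (0.17 ± 0.10), all structural parts of the particle, lay above 0. *Rrp9* (-0.11 ± 0.16), which binds the U3 guide RNA, *Nat10* (-0.08 ± 0.08), which acetylates rRNA, and *Nop14* (-0.03 ± 0.20) lay below. When FS_CTR replicates 3 and 4 were left out, the values were -0.06 for *Utp14a*, 0.12 for *Wdr75*, 0.01 for *Utp15*, 0.19 for *Utp18*, 0.08 for *Rrp9*, -0.14 for *Nat10* and 0.31 for *Nop14*.

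In *Heatr1* and *Utp20*, as in *Polr1a*, the positive values came with low levels in FS_CTR replicates 3 and 4. *Heatr1* was at 51.9, 38.8, 44.7 and 51.4 CPM in FS_DSS, against 52.0, 34.5, 31.5 and 22.8 CPM in FS_CTR. *Utp20* was at 50.4, 47.0, 45.4 and 51.2 CPM in FS_DSS, against 59.0, 44.2, 32.4 and 26.4 CPM in FS_CTR. The groups overlapped in both, and without those libraries the Log2(FC) was 0.11 for *Heatr1* and -0.09 for *Utp20*.

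The 6 genes of large subunit assembly had a median of 0.10, with 2 negative and 0 at an unadjusted *p* under 0.05, and a median of 0.02 without FS_CTR replicates 3 and 4. *Pes1*, *Bop1* and *Wdr12* encode the complex that is needed to process the precursor of the large subunit. *Bop1* had 80.4, 87.1, 80.1 and 89.3 CPM in FS_DSS, against 77.2, 80.8, 67.3 and 65.7 CPM in FS_CTR, with 1 FS_CTR library inside the FS_DSS range, and a Log2(FC) of 0.21 ± 0.09 (unadjusted *p* 0.0501, or 0.0460 with the replicate block in edgeR). *Pes1* was at 80.7, 96.9, 102 and 105 CPM in FS_DSS and 90.7, 99.3, 103 and 96.8 CPM in FS_CTR, and *Wdr12* had 0.09 ± 0.11. *Gnl3*, nucleostemin, a nucleolar GTPase of stem and dividing cells, had 0.20 ± 0.18, *Nop2* had 0.12 ± 0.10 and *Nop16* had -0.14 ± 0.11. The values without FS_CTR replicates 3 and 4 were 0.09 for *Bop1*, 0.02 for *Gnl3*, 0.19 for *Nop2* and -0.18 for *Nop16*.

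All 5 genes of small subunit maturation had a positive Log2(FC), with a median of 0.09, and 0.07 without FS_CTR replicates 3 and 4. *Bysl* (0.25 ± 0.12), which joins the late precursor, and *Rrp12* (0.21 ± 0.10), known in yeast for its export from the nucleus, were the highest. *Ltv1* (0.09 ± 0.10), *Tsr1* (0.05 ± 0.07) and *Nob1* (0.01 ± 0.11), the endonuclease that makes the final cut of the small subunit rRNA, were nearer to 0. Without those libraries *Bysl* had 0.13, *Rrp12* 0.10, *Ltv1* 0.02 and *Nob1* -0.15. *Tsr1* had the smallest standard error of the 39 genes and was at 77.1, 74.4, 81.4 and 78.2 CPM in FS_DSS, against 73.6, 74.8, 79.7 and 72.6 CPM in FS_CTR, with overlapping groups.

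**Figure D4:**
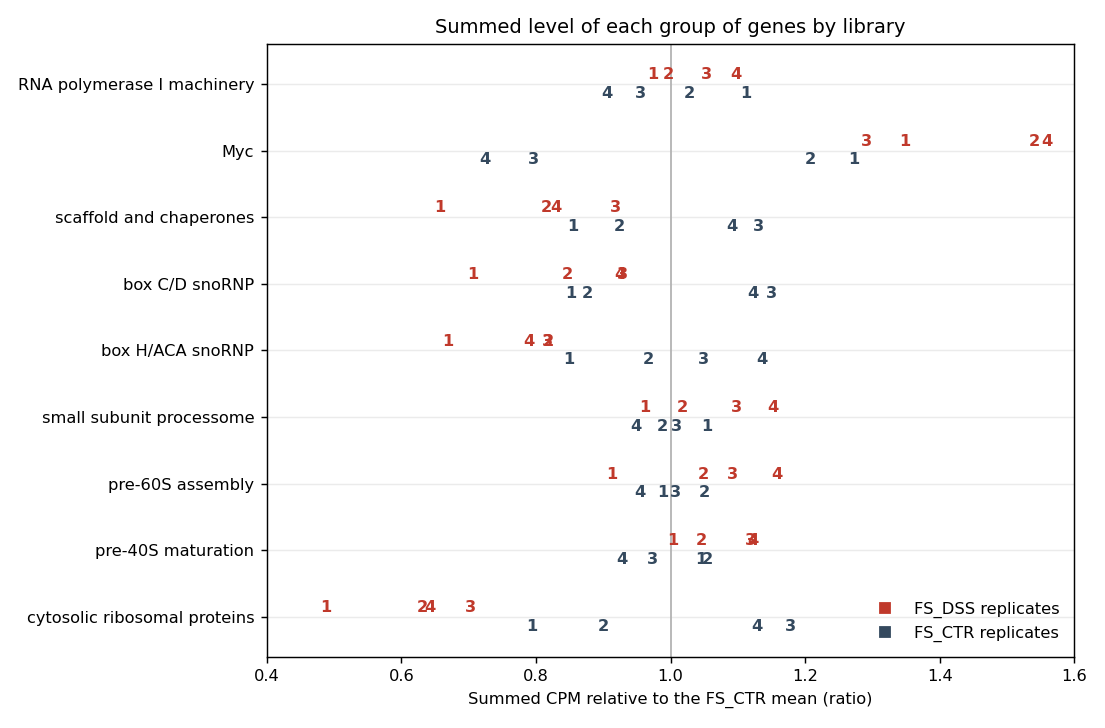
Summed CPM of each role relative to its FS_CTR mean, with FS_DSS replicates above FS_CTR replicates in each row and numbers for the replicate. For the box H/ACA proteins, Myc and the ribosomal proteins the FS_DSS and FS_CTR libraries do not overlap, while for the RNA polymerase I machinery and the later assembly steps they are mixed.

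The factors of these later steps outside the set were just as mixed. Of 49 other small subunit factors, 20 had a negative Log2(FC), with a median of 0.05. At an unadjusted *p* under 0.05 there were 7 higher and 6 lower, against 10.6% and 13.4% of all genes. Leaving out FS_CTR replicates 3 and 4 gave a median of 0.0084, with 24 negative. At that *p* 0 were then higher, against 9.42% of all genes, and 3 lower, against 10.9%. *Emg1*, a methyltransferase of small subunit rRNA, had the smallest *p*, with 35.9, 43.3, 44.1 and 38.2 CPM in FS_DSS, against 48.7 to 64.1 CPM in FS_CTR. Its groups did not overlap, and its Log2(FC) of -0.51 ± 0.11 had an adjusted *p* of 0.0791 in edgeR's quasi-likelihood test and 0.0471 with the replicate block. *Ddx49* (-0.41 ± 0.12), *Nol7* (-0.52 ± 0.16) and *Wbscr22* (-0.33 ± 0.11) were lower too, whereas *Dhx37* (0.39 ± 0.13), a helicase that frees the U3 RNA, *Cirh1a* (0.43 ± 0.15), *Riok3* (0.30 ± 0.09) and *Wdr3* (0.24 ± 0.10) were higher.

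Of 48 other large subunit factors, 18 were negative, with a median of 0.05. At that *p* 4 were higher, against 10.6% of all genes, and 2 lower, against 13.4%. With the replicate block 3 were higher, against 14.7%, and 5 lower, against 16.2%. When FS_CTR replicates 3 and 4 were left out there were 2 higher, against 9.42%, and 1 lower, against 10.9%. Each of these counts lay below the share of all genes. The 4 higher ones in the main fit were *Tex10* (0.44 ± 0.12), the export adaptor *Nmd3* (0.27 ± 0.11), the GTPase *Lsg1* (0.29 ± 0.12) and the helicase *Ddx24* (0.22 ± 0.09). The lower ones were *Nle1* (-0.27 ± 0.11) and *Nsa2* (-0.28 ± 0.11).

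The ribosomal proteins, which the assembly factors build into the subunits, are not in the set and were read beside it. Of 78 cytosolic ribosomal proteins tested, 77 had a negative Log2(FC), against 52.5% of all genes, with a median of -0.76. In edgeR's quasi-likelihood test 74 were lower at an unadjusted *p* under 0.05, against 13.4% of all genes. Their summed level was 17918, 23168, 25837 and 23621 CPM in FS_DSS, against 29190, 33073, 43284 and 41427 CPM in FS_CTR. The groups did not overlap, and without FS_CTR replicates 3 and 4 the median was -0.47, with 78 of 78 negative. In that fit 58 were lower at that *p*, against 10.9% of all genes. In the main fit the assembly genes split 15 negative to 24 positive. Their transcripts are longer, with a median of 3474 bases for the canonical form in the annotation, against 1074 for the ribosomal proteins. The part of length in this contrast was not tested.

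Many of the differences went with the split within the FS_CTR group. Of the 15 genes of the set with a negative Log2(FC), 11 were higher in FS_CTR replicates 3 and 4 than in 1 and 2. Of the 23 with a positive one, *Nolc1* left out, 19 were lower in them. Both libraries are part of the FS_CTR mean, so part of this agreement follows from the arithmetic. No such count was made over all genes, so these counts do not show a trait of the set. Leaving both libraries out gave a median of 0.02, 17 negative values, and 3 genes lower at an unadjusted *p* under 0.05 (*Tcof1*, *Fbl* and *Gar1*), against 10.9% of all genes, and 0 higher, against 9.42%. For 7 genes every FS_DSS library then lay below both remaining FS_CTR libraries, against 18.9% of all genes, and for 1 above both, against 15.7%. The sign was as before in 29 of the 39. What set these libraries apart was not tested.

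Transcript length moved with the differences. Over the 39 genes, Spearman's correlation between Log2(FC) and the length of the canonical transcript in the annotation, which need not be the form expressed here, was 0.40, against 0.38 over 11782 tested genes with a length and 0.57 over 103 other ribosome biogenesis genes. All of these share the same 8 libraries, and without FS_CTR replicates 3 and 4 the values were 0.12, 0.18 and 0.32. Of the 8 genes of the set with 1000 to 2000 bases, 7 were negative, with a median of -0.25, against -0.21 over 1997 genes of that length. They include *Fbl* (1213 bases), *Gar1* (1272), *Nop10* (1259) and *Nhp2* (1054), whereas *Dkc1* has 4877. In the ranges of 2000 to 3000 and 3000 to 5000 bases the medians of the set were 0.14 and 0.13, against -0.08 and 0.02 over all genes. Above 5000 bases the median was 0.07 over 8 genes, against 0.14. The longer *Ncl* (8288 bases) and *Ubtf* (4692) were also lower at an unadjusted *p* under 0.05. Their Log2(FC) of -0.36 and -0.24 lay below the medians of all genes in their length ranges. The part of length in the lower values of the short snoRNP genes was not tested.

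**Figure D5:**
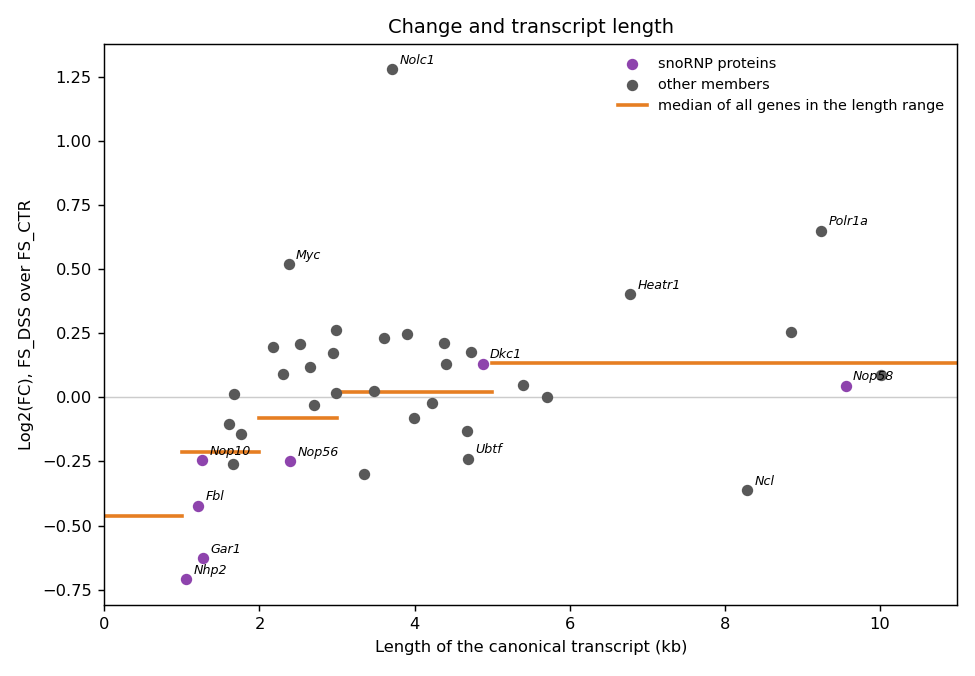
Log2(FC) of FS_DSS over FS_CTR against the length of the canonical transcript in kilobases, with the snoRNP proteins in purple, the other genes of the set in grey and the median of all genes in each length range as orange bars. Fbl, Gar1, Nhp2 and Nop10 are short and lie at or below the median of genes of 1000 to 2000 bases, -0.21, and Nop58 and Dkc1 are longer and lie near 0. Nop56, of 2396 bases, lies at -0.25, below the median of -0.08 in its range of 2000 to 3000 bases.

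The share of dividing cells may bear on a pathway used for growth, so markers of division were read beside it. Of 15 proliferation genes, 14 had a negative Log2(FC), with a median of -0.31 and 0 at an unadjusted *p* under 0.05. With the replicate block 8 were lower at that *p*, and without FS_CTR replicates 3 and 4 all 15 were negative, with a median of -0.69 and 7 lower. *Mki67*, the usual marker of cycling cells, was at 139, 102, 65.1 and 29.1 CPM in FS_DSS, against 176, 143, 74.0 and 47.7 CPM in FS_CTR. The groups overlapped, while within each of the 4 same-numbered pairs the FS_DSS library was lower. Over 10 stem cell markers the median was -0.42, with 3 lower at that *p*. Without FS_CTR replicates 3 and 4 all 10 were negative, with a median of -0.76 and 6 lower, and with the replicate block 5 were lower. Of all genes, 13.4% were lower at that *p* in the main fit, 16.2% with the block and 10.9% without those libraries. The part of either list in the levels of the ribosome biogenesis genes was not tested.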

How the data were processed

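Stranded libraries were made from RNA of colon organoids, 4 in each condition, and read from both ends. Counts per gene were estimated by the authors with Salmon 1.10.1 on a GRCm39 transcriptome and summed them over transcripts, and the deposited estimated counts, all whole numbers, do not include the later DESeq2 1.36.0 normalization. For the transcriptome release and the strand setting, the value is not given in the sources used here. Reads that fit paralogs, pseudogenes or overlapping genes may have been split between them.

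The comparison used edgeR's quasi-likelihood test (edgeR 4.0.16, R 4.3.3) with TMM scaling and filterByExpr, which kept 12729 of 29234 genes, over which *p* values were adjusted by Benjamini-Hochberg. CPM are scaled by TMM, and standard errors (SE) are the size of Log2(FC) divided by the square root of F. Python 3.11.15, pandas 2.3.3 and matplotlib 3.10.9 served for summaries and plots. Positions and transcript lengths came from a GRCm39 annotation matched by symbol, 13 listed symbols through older names, and promoters from RefSeq on GRCm38.p6. Columns of no mapped sample numbered 0.

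The genes, the 15 other lists, the tests and the alternatives were chosen with earlier results of these data known. Every gene of the set was named, and from other lists up to 4 genes per direction with the smallest *p* under 0.05. *Max*, *Mki67* and the count ratios were chosen after their values were seen. Alternatives were DESeq2 1.42.0 as test and its size factors, library totals or TMM without mitochondrial genes as scaling, limma-voom (limma 3.58.1), other filters, the replicate number as a block, and libraries left out. Libraries with the same replicate number deviated together, with correlations of 0.352, 0.221, 0.154 and 0.226, all above 0.1, and were treated as pairs in the alternative with a block, although what the numbers stand for is not stated and FS_DSS replicate 4 correlated with FS_CTR replicate 3 at 0.188 and FS_DSS replicate 1 with FS_CTR replicate 2 at 0.142. The main comparison has no pairs.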

Additional observations from a re-analysis of the deposited data

Results flagged for a closer look

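Of 78 groups of 4 libraries, each gene of the set in each condition, 1 had a library whose distance from the nearest other, as a share of the range, passed Dixon's critical value. It was *Nop58* in FS_CTR, where replicate 2 was at 76.1 CPM and the other libraries at 68.7 to 69.7 CPM, a share of 0.861. Chance alone marks about 1 in 20 such groups.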

How the results depend on the processing

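Of 1223 values recomputed for 72 genes, 1184 kept their direction and 39 turned in 13 genes, the largest of which had a size of 0.25. *Max* and *Mki67* are not among the 72, and *Max* also turned without FS_CTR replicates 3 and 4. With the replicate block, 2 genes of the set were lower at an adjusted *p* under 0.05 in edgeR, and at an unadjusted *p* under 0.05 there were 2 higher. With DESeq2 the counts were also 2 and 2, and DESeq2 size factors or TMM without mitochondrial genes gave 2 higher at that *p*. By the study's thresholds, 1 was lower with limma-voom. Library totals as the scaling moved the median of all genes to 0.31. On that scale 0 were lower by the study's thresholds, and an unadjusted *p* under 0.05 was reached by 0 higher and 0 lower genes. In both directions 0 had groups that did not overlap. Shares of all genes were not counted for limma-voom or for the other scalings, so these counts cannot set the genes apart from the rest. Without FS_CTR replicates 3 and 4, 0 were lower by the study's thresholds, an unadjusted *p* under 0.05 was reached by 0 higher and 3 lower genes, and for 7 every FS_DSS library lay below the fewer FS_CTR libraries. Without those libraries, values turned for *Polr1b* (-0.16), *Polr1e* (-0.0038), *Nop56* (0.14), *Dkc1* (-0.12), *Rrp9* (0.082), *Nop14* (0.31), *Utp20* (-0.089), *Pes1* (0.016), *Wdr12* (-0.0083) and *Nob1* (-0.15). With library totals, relative to that median, they turned for *Polr1b* (-0.020), *Nop14* (0.081), *Pes1* (0.013) and *Nob1* (-0.0095), and with limma-voom for *Polr1b* (-0.011), *Nop14* (0.016) and *Nob1* (-0.0056). The cause was not tested. Promoter matches in the 250 bases before the start alone were in 9.09% of the set.

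Leaving out 1 library at a time gave 0 to 1 gene higher (0.0% to 3.9% of all genes) and 0 to 3 lower (0.0% to 5.34%) at an adjusted *p* under 0.05 in edgeR, 0 to 3 higher (1.38% to 4.79%) and 0 to 2 lower (4.53% to 8.34%) by the study's thresholds, and 0 to 8 higher (6.76% to 15%) and 2 to 7 lower (9.02% to 17.1%) at an unadjusted *p* under 0.05. The median lay between 0.0088 and 0.10, 13 to 19 genes were negative, and groups did not overlap for 1 to 7 higher (7.98% to 14.9%) and 3 to 6 lower (8.27% to 14.4%) genes. The adjusted calls came without FS_CTR replicate 1, with *Fbl*, *Nhp2* and *Gar1* lower and *Heatr1* higher, against 5.34% and 3.9% of all genes in that fit. Ranges that crossed 0 were those of *Polr1b* (-0.071 to 0.069), *Polr1e* (-0.053 to 0.079), *Tcof1* (-0.28 to 0.070), *Nop58* (-0.0058 to 0.10), *Rrp9* (-0.20 to 0.00079), *Nop14* (-0.14 to 0.11), *Wdr43* (-0.025 to 0.10), *Pes1* (-0.066 to 0.053) and *Nob1* (-0.045 to 0.081). Few reads limit *Nolc1*, which had 0 in 3 libraries.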
